A study of Rattus norvegicus with 20 samples.

Results

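Rat cells derived with RA/Fsk were compared with rat progenitors kept at high density (HD). The comparison took each array titled Ldn and each array titled HD, which were 10 of the 20 arrays of the series. The 4 RA/Fsk arrays carry the numbers 1, 2, 3 and 4, and their starting cells were low-density (LD) CCg progenitors that received RA/Fsk to make neurons. The 6 HD arrays are an a and a b array of each of the numbers 1, 2 and 4, from progenitors whose labels name no treatment. Where 2 arrays of a group carry one number, the mean of their log2 values was used, and each number is called a culture here, so that 4 RA/Fsk cultures stood against 3 HD cultures. Each HD culture is thus a mean of 2 arrays and each RA/Fsk culture is 1 array. The other 10 arrays are of untreated LD CCg progenitors (4 arrays, 3 cultures) and of LD CCg progenitors given FBS to make astrocytes (6 arrays, 4 cultures).

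RA, Fsk and FBS are the usual abbreviations of retinoic acid, forskolin and fetal bovine serum. The labels give no dose, duration, medium, strain, animal age or tissue of origin, and they do not expand CCg. CCg stands in the labels of the LD cells and their derivatives and not in those of the HD cells, so treatment, plating density and CCg status differ together between the groups and cannot be told apart by the direct comparison. The HD cells are a second progenitor reference that shares no array with the LD reference. Nothing in the labels states that each number was grown separately, and the p-values thus cover the spread between these samples only, which may be technical.

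Retinoic acid enters cells, is carried by cellular binding proteins and activates nuclear receptors that sit on the DNA of their target genes, such as Hox genes and the Cyp26 enzymes that degrade it. Forskolin activates adenylyl cyclase, which raises cyclic AMP. Cyclic AMP releases the catalytic subunits of protein kinase A, which phosphorylate CREB, a factor that binds the cyclic AMP response element in promoters such as those of Fos, Vgf and Scg2. Neural progenitors divide and contain nestin. Cells that become neurons usually leave the cell cycle and gain growth cone and synaptic proteins, while astrocytes and oligodendrocytes gain products such as S100b and myelin basic protein.

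Each array holds 8799 probe sets with a linear intensity, scaled to a common level. After the lowest and the highest 2% of values were left out, the mean of each of the 10 arrays was 200.4. Log2 values correlated at 0.974 to 0.975 between HD cultures, at 0.939 to 0.968 between RA/Fsk cultures and at 0.928 to 0.954 between the groups. The first principal component of the 7 cultures held 35.9% of the variance and separated the groups, with HD at -36.1 to -25.8 and RA/Fsk at 15.7 to 36.4. The second held 22% and ran from 30.7 in RA/Fsk culture 1 to -43.7 in RA/Fsk culture 3. The log2 ratio of the 5′ to the 3′ control probe set of Gapdh, a sign of RNA quality, ran from -0.20 to 0.05 in HD and from -0.47 to -0.11 in RA/Fsk. It was thus lower in the RA/Fsk cultures on the whole and overlapped between the groups. Its part in the results was not tested beyond a fit that includes it.

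Differences are given as log2(intensity + 4.96) of RA/Fsk minus HD with the standard error (SE), so 1 is a doubling, and the added 4.96 makes the changes of dim genes smaller. A probe set passed at an adjusted p under 0.05 in limma, and rose, fell and changed are written only of what passed. Of 8740 probe sets 889 passed (10.2%), 424 of them higher (4.85%) and 465 lower (5.32%) in RA/Fsk. At least a 2-fold difference was seen in 464 of the 889, with 236 higher and 228 lower. Taken as 1 probe set per gene, 505 of 4736 genes passed (10.7%), of which 271 rose (5.72%) and 234 fell (4.94%). Culture ranges did not overlap between the groups for 892 genes (18.8%). The median difference of all genes was 0.08. When each array was centred on its median, 294 probe sets rose and 483 fell, so the share of rises depends on the scaling.

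**Figure D1:**
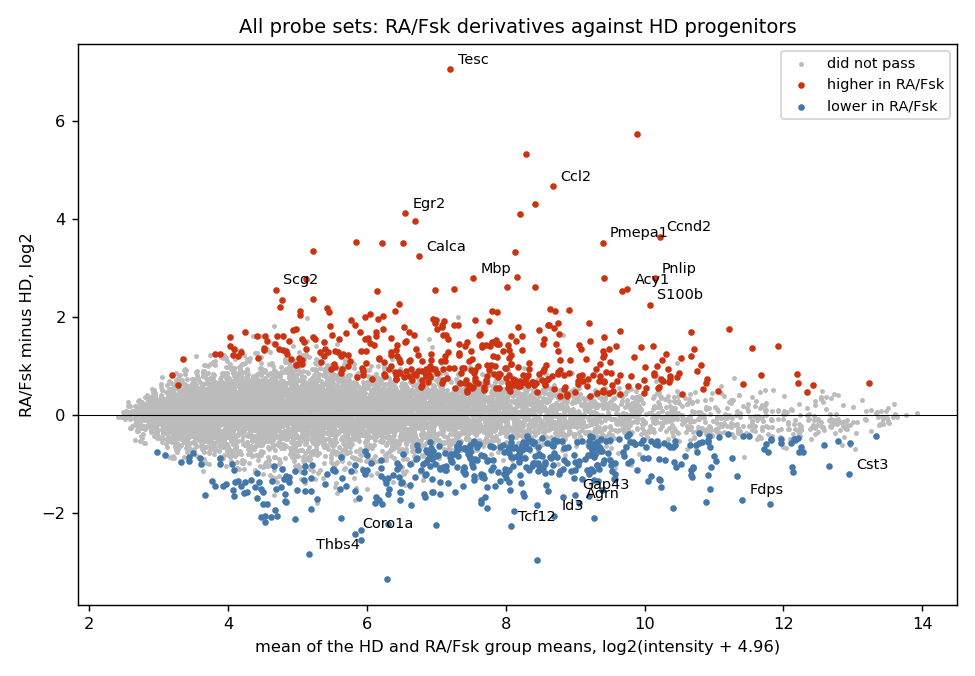
Difference between RA/Fsk and HD in log2 for each of 8740 probe sets (vertical axis) against the mean of both group means in log2(intensity + 4.96) (horizontal axis). Red points passed as higher (424) and blue points as lower (465) in RA/Fsk; Tesc stands highest at 7.05 and Thbs4 is the lowest of the genes named in the plot at -2.84.

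The largest rise was that of Tesc, which encodes tescalcin, a calcium-binding protein. In the order HD 1, 2 and 4 and then RA/Fsk 1, 2, 3 and 4, which is kept below, its intensity was 4.7, 7.0 and 13.2 in HD and 1501, 1761, 1806 and 1719.5 in RA/Fsk. The gene went from among the dimmest signals in HD to a narrow, bright band in RA/Fsk, with a difference of 7.05 ± 0.32 (SE, 4 against 3 cultures, adjusted p = 7.88e-10). Its size rests on the dim HD values and ran from 5.70 to 7.64 over the alternative settings. Ccl2, a chemokine that draws monocytes, had 78.6, 102 and 56.5 in HD and 2187, 2100, 2069 and 1933 in RA/Fsk, a rise of 4.66 ± 0.27. Egr2, a zinc finger factor that is induced early by many stimuli and drives Schwann cell myelination, had 21.1, 25.7 and 9.3 against 311, 553, 235 and 547, a rise of 4.12 ± 0.40. That culture ranges of the 2 groups do not overlap was part of the rule that chose the largest rises and falls, and is no separate observation for them.

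Other large rises were of genes with different roles. Pgc, the precursor of a stomach protease, stood at 13.1, 17.5 and 6.8 in HD and 197, 311, 93.3 and 226 in RA/Fsk (3.53 ± 0.40). Myl9, a regulatory light chain of myosin, stood at 25, 43.6 and 8.7 and 291, 332, 284 and 320 (3.52 ± 0.37). Pmepa1, a membrane protein that dampens TGF-beta signalling, stood at 239.6, 184 and 166 and 2619.5, 2695, 1686 and 2262 (3.52 ± 0.25). The RA/Fsk values of Myl9 and Pmepa1 were close together, while those of Pgc were lowest in culture 3. Pnlip, a lipase of the exocrine pancreas, stood at 383, 695 and 287 in HD and 4306, 4259, 1181 and 3595 in RA/Fsk (2.79 ± 0.37), and culture 3 was again the lowest of the treated cultures. Acy1, an enzyme that removes acetyl groups from amino acids, stood at 342, 415 and 299.8 and 1954, 2407, 1835 and 2233, a rise of 2.57 ± 0.14 with an adjusted p of 5.34e-09. Camk2n1, an inhibitor of the calcium-dependent kinase CaMKII, rose by 2.56 ± 0.43. Its RA/Fsk values were 184, 238, 626 and 303, the highest in culture 3, against 38.2, 48.1 and 57.2 in HD. The 14 largest rises by the rule for naming genes each passed in every alternative fit apart from the unmoderated test. Of 7 that have more than 1 probe set, all probe sets rose for 6; the exception was Egr1, with 2 of 4.

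The largest falls were also of genes with different roles. Thbs4, a thrombospondin of the extracellular matrix, had 73.8, 73.2 and 138 in HD and 9.4, 6.8, 9.4 and 8.4 in RA/Fsk, a fall of 2.84 log2 (SE 0.32, adjusted p = 4.01e-05). All 4 treated cultures were near the bottom of the intensity range. Coro1a, an actin-binding protein best known in blood cells, had 133, 139 and 108 and 14.8, 30.4, 29.4 and 9.9 (-2.42 ± 0.33). Ctnnd2, delta-catenin of neural adherens junctions, had 104, 126 and 170 and 12, 9.3, 42.4 and 39.8 (-2.34 ± 0.43). Enpp1, an enzyme that makes pyrophosphate outside the cell, had 163, 138 and 201 and 29.9, 46.3, 29.3 and 23.8 (-2.22 ± 0.33). HD was dim to moderate in these 4 genes, at 73.2 to 201. Agrn, the proteoglycan agrin that clusters receptors at the neuromuscular junction, was brighter and fell from 976, 851 and 1146 to 197, 371, 288 and 291 (-1.80 ± 0.18, adjusted p = 1.27e-05). Nxph1, a secreted ligand of neurexins, stood at 205, 50.4 and 187 in HD, where culture 2 was far below the other two, and at 30.3, 28, 39.7 and 42.1 in RA/Fsk (-1.73 ± 0.36). Of the 14 largest falls, 12 passed in every alternative fit apart from the unmoderated test. Lin7c, a PDZ scaffold protein, did not pass with the Gapdh ratio as a covariate (-2.12 ± 0.49 in the reported fit). Dctn4, a subunit of dynactin (-1.72 ± 0.44), lost its call in 5 alternatives. Among all 182 named genes 138 passed, and 53 of these lost the call in an alternative other than the unmoderated test.

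**Figure D2:**
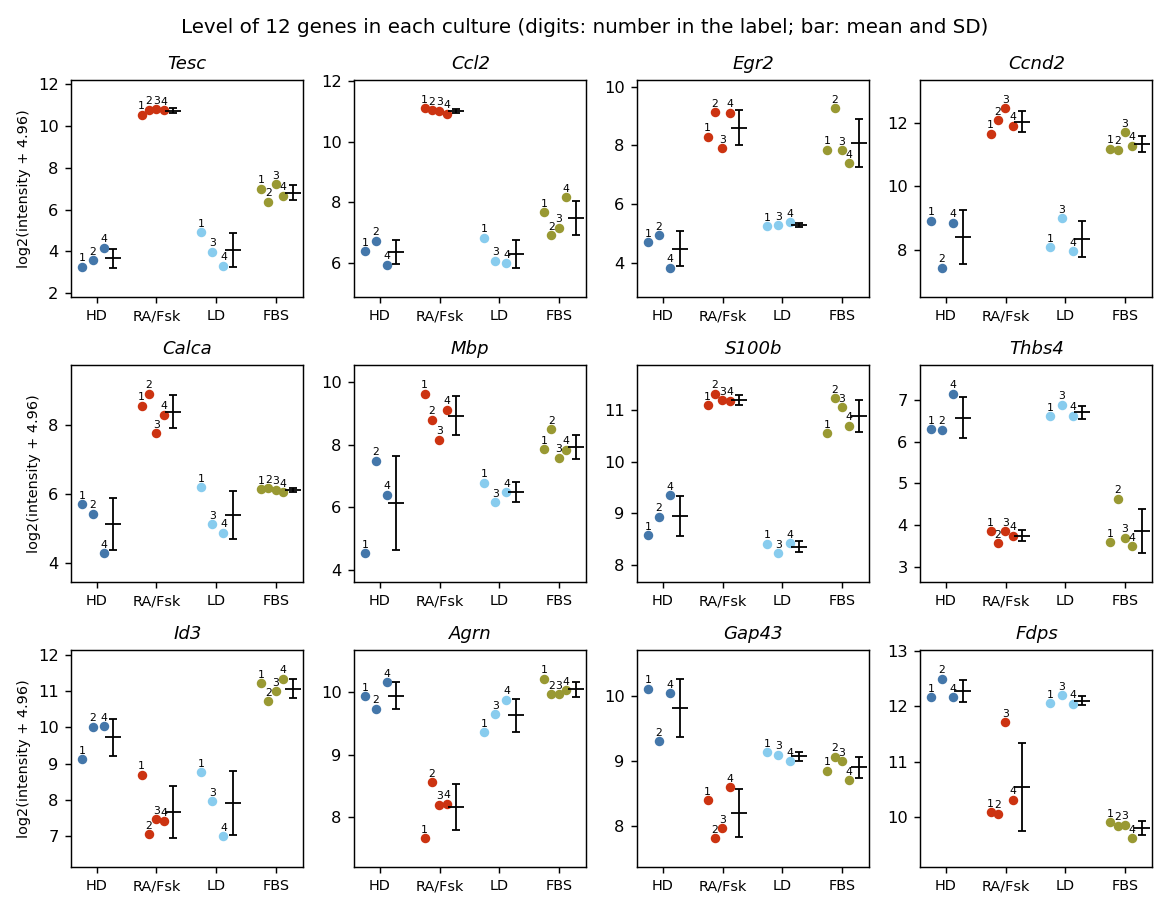
Level of 12 genes in each culture, in log2(intensity + 4.96), for HD, RA/Fsk, LD and FBS; digits are the numbers in the labels and bars give mean and SD of a group. Tesc, Ccl2 and S100b form tight bands in RA/Fsk, Mbp is scattered in HD, and Fdps in RA/Fsk culture 3 lies nearer to HD than to the other 3 RA/Fsk cultures.

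The labels call the RA/Fsk cells neurons, and against HD the lists of neuronal genes were uneven. Few genes of the synaptic vesicle, channel and receptor lists passed, against 10.7% of all genes (5.72% rose and 4.94% fell). Many members of these lists are dim. When the dimmer 50% of probe sets was left out, 21 of 47, 15 of 53 and 22 of 77 genes remained. The part of dim signal in the low counts was not tested. The list of the neuronal cytoskeleton and growth cone leaned to falls. Of its 25 measured genes 1 rose and 4 fell (16% against a background of 4.94%), with a median difference of -0.12. Its summed intensity was 19342 to 22122 in HD and lower, at 17283 to 17905, in RA/Fsk. The 4 genes that fell are part of this sum, so it is no separate observation on the list. Cdk5, a kinase of postmitotic neurons, rose by 0.72 ± 0.16 from 137, 174 and 167 to 303, 244, 266 and 249. Gap43, a growth cone protein, fell by 1.63 log2 (SE 0.21), from 1104, 626 and 1051 in HD to 332, 219, 244 and 382 in RA/Fsk. All 4 treated cultures were below all 3 HD cultures for Gap43. Crmp1 (-1.12 ± 0.18) and Dpysl3 (-1.58 ± 0.34), which transmit guidance cues in growth cones, and Stmn1 (-0.83 ± 0.17), which destabilises microtubules, also fell. Stmn1 is abundant in dividing cells too and stands in the cell cycle list as well.

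Of 47 genes of synaptic vesicles and release, 1 rose and 1 fell, with a median of 0.08, the median of all genes. Synj1, a phosphatase of vesicle recycling, rose by 0.92 ± 0.18. Syt1, the calcium sensor of vesicle release, fell by 1.61 log2 (SE 0.43) from values of 48.7, 41.6 and 43.3, which were dim in HD already. The call for Syt1 was lost in 5 alternatives. Snap25, of the vesicle fusion machinery, was 46.7, 34.2 and 16.5 in HD and 99.6, 61.1, 60.8 and 44.1 in RA/Fsk (0.97 ± 0.34, adjusted p = 0.0899), and the groups overlapped. Differences that did not pass were 0.14 ± 0.21 for Map2, 0.07 ± 0.31 for Syp, 0.29 ± 0.23 for Syn1, 0.71 ± 0.50 for Nefl and 1.61 ± 0.58 for Nefm. Th, which marks dopamine and noradrenaline neurons, was 46, 49.2 and 59.1 and 59.5, 61.4, 63.9 and 66.1 (0.27 ± 0.23, adjusted p = 0.551). Tubb3, Stmn2 and Dcx have no probe set with a single symbol of their own here. Of 53 neuronal channel genes 0 passed, against 10.7% of all genes. In limma 7 (13.2%) had an unadjusted p under 0.05 against 23.3% of all genes, and 5 (9.43%) had groups that did not overlap against 18.8%. Of 77 transmitter receptor genes 1 rose (Grik4, a kainate receptor subunit, 1.62 ± 0.46) and 1 fell (Gria4, an AMPA receptor subunit, -1.30 ± 0.30). The call for Grik4 was lost when any culture other than RA/Fsk 2 or 3 was left out, and that for Gria4 without HD culture 1. Abat, which breaks down GABA, rose by 1.35 ± 0.41 as the 1 call among 19 genes of transmitter synthesis and uptake, and this call was lost when any culture other than RA/Fsk 3 was left out.

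Some surface and secreted genes of the nervous system rose. Of 36 neural adhesion genes, 4 rose (11.1%, background 5.72%) and 1 fell (2.78%, background 4.94%), and their median was 0.06. Ntm, neurotrimin, had 61.5, 121 and 56.4 in HD and 311, 247, 202 and 225 in RA/Fsk (1.63 ± 0.30). Reln, the secreted protein reelin that positions neurons, had 45, 35.4 and 31.4 and 113, 144, 93.7 and 87.7 (1.42 ± 0.32). Opcml (0.82 ± 0.25) and Nrxn2 (0.68 ± 0.20) rose by less, and 2 rises instead of 4 were left without HD culture 1, RA/Fsk culture 2 or RA/Fsk culture 4. Cntn1, contactin, fell from 1997, 2611 and 2958 to 994, 937, 921 and 1479 (-1.23 ± 0.20).

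Of 32 measured genes of secretory granules and neuropeptides 6 rose (18.8%, background 5.72%) and 0 fell, with a median of 0.33. The other 26 did not pass. Against LD, where 8.93% of all genes passed, 6 members of the list rose and 2 fell (median 0.09). Calca, which encodes calcitonin and the peptide CGRP, had 46.9, 37.9 and 14.6 in HD and 369, 474, 212 and 309 in RA/Fsk, a rise of 3.24 ± 0.36 (adjusted p = 3.10e-05). Scg2, a granin packed in dense-core granules, went from 2.1, 11.3 and 5.4 to 41.7, 69.8, 50.2 and 73.5 (2.56 ± 0.38). Npy, neuropeptide Y, went from 10.4, 24.6 and 16.2 to 54.7, 76.2, 182 and 71.1 (2.10 ± 0.38), with culture 3 the highest. The processing enzymes Pam, which amidates peptides (1.01 ± 0.15), and Cpe, a carboxypeptidase (a rise of 1.08), and the granin Vgf (0.94 ± 0.18) rose as well. Chgb, another granin, stayed dim in both groups, at 15.3, 6.3 and 3.0 and 11.6, 1.5, 2.1 and 4.5 (-0.40 ± 0.43, adjusted p = 0.657). The list holds genes of endocrine cells as well as of neurons.

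Several glial genes rose. These are bulk samples, in which fewer cells of a type and less RNA per cell cannot be told apart. S100b, a calcium-binding protein of astrocytes, Schwann cells and oligodendrocyte precursors, stood at 377, 483 and 651 in HD and 2192, 2564, 2352 and 2326 in RA/Fsk, a rise of 2.25 ± 0.18 (adjusted p = 7.20e-07). Of 21 astrocyte markers 4 rose (19%, background 5.72%) and 2 fell (9.52%, background 4.94%), with a median of 0.23. Aldoc, a glycolytic enzyme, went from 2283, 2138 and 3017 to 4194, 4161, 4141 and 4943 (0.83 ± 0.16). Glul, glutamine synthetase, went from 884, 1011 and 1007 to 1483, 1413, 1449 and 1919 (0.68 ± 0.17). Apoe rose by 0.76 ± 0.20. The falls were of Cst3, a secreted protease inhibitor (10427, 10252 and 15981 to 5926, 4711, 5562 and 4612, -1.21 ± 0.17), and of Vim, vimentin (-0.59 ± 0.18). Without HD culture 1, 2 astrocyte genes rose instead of 4, and the falls numbered 1 without HD culture 1 or 4 or RA/Fsk culture 1, 3 or 4. The glutamate transporters Slc1a3 (-0.92 ± 0.31) and Slc1a2 (-0.08 ± 0.51) and the water channel Aqp4 (0.26 ± 0.37) did not pass, and Gfap has no single-symbol probe set here. The summed intensity of the 21 markers overlapped, at 18750 to 27203 in HD and 17843 to 19147 in RA/Fsk. Cst3, at 10252 to 15981 in HD and 4612 to 5926 in RA/Fsk, is a large part of this sum. The overlap thus does not describe the other markers.

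Of 14 oligodendrocyte lineage genes 4 rose (28.6%, background 5.72%) and 0 fell (median 0.54). Mbp, myelin basic protein, had 18.2, 174 and 79 in HD, a wide spread, and 789.5, 439, 280.2 and 550.2 in RA/Fsk (2.79 ± 0.49, adjusted p = 0.00163). Cnp, an enzyme of myelin, went from 989, 841 and 974 to 1920, 2175, 1382 and 1782 (0.94 ± 0.15). Cd9, a tetraspanin of many cell types, went from 659.7, 643 and 740.4 to 2152, 1630, 1497 and 2038 (1.41 ± 0.14). Enpp2, autotaxin, went from 118, 98.9 and 106 to 615, 584, 169 and 495 (1.91 ± 0.33), with culture 3 far below the other treated cultures. The summed intensity of this list did not overlap, at 3329 to 4023 in HD and 5275 to 7600 in RA/Fsk. The 4 genes that rose are part of this sum, so it is no separate observation on the list. Myelin genes that did not pass were Mag (0.44 ± 0.26) and Mobp (0.17 ± 0.44), and neither did the precursor genes Pdgfra (-0.07 ± 0.28), Cspg4 (-0.04 ± 0.42) and Sox10 (0.07 ± 0.26). Among 13 Schwann cell and neural crest genes 2 rose (15.4%, background 5.72%) and 1 fell (7.69%, background 4.94%). Egr2 and Gfra1, a receptor of GDNF (1.65 ± 0.22), rose and Foxd3, a neural crest factor (-0.64 ± 0.20), fell. The fall was lost when any culture other than RA/Fsk 1 was left out. Of 14 neural progenitor markers 2 rose (14.3%, background 5.72%). Dbi, which binds acyl-CoA, rose from 2015, 2082 and 1506 to 6053, 5157, 3548 and 4782 (1.37 ± 0.17) and Cd24, a surface glycoprotein, rose by 1.34 ± 0.41. When any culture other than RA/Fsk 2 was left out, 1 of the 14 rose. Nes, nestin, was 921, 1119 and 1051 and 621, 1226, 1742 and 909 (0.03 ± 0.26), with the lowest and the highest value both in RA/Fsk.

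Markers of cells from outside the neural lineage summed to low levels. Of 15 microglia and macrophage genes 1 rose (Csf2rb, 0.80 ± 0.22) and 1 fell (Coro1a), 6.67% each against 5.72% and 4.94% of all genes. The rise was lost without HD culture 2 or 4 or RA/Fsk culture 1. The summed intensity was 547 to 671 in HD and 527 to 817 in RA/Fsk. Ccl2 is also made by macrophages, and their genes Csf1r (a difference of -0.14), Itgam (0.21) and Ptprc (0.14) did not pass. Of 12 endothelial genes 0 passed in limma (0 at an unadjusted p under 0.05, against 23.3% of all genes), with sums of 297 to 384 and 295 to 510. Of 19 mural and fibroblast genes 3 rose (15.8%, background 5.72%). They were Mgp, a matrix protein that restrains calcification (2.12 ± 0.38), Col5a1, a collagen (1.49 ± 0.21), and S100a4 (1.20 ± 0.23). Sums of that list were 506 to 629 in HD and 775 to 1161 in RA/Fsk, while Acta2 (-0.13 ± 0.21) and Col1a1 (-0.13 ± 0.28) did not pass. The part of such cells in Ccl2, Myl9 and Mgp was not tested.

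Retinoid genes gave a mixed picture. Of 23 measured genes of retinoid binding and response 4 rose (17.4%, background 5.72%) and 1 fell (4.35%, background 4.94%), with a median of 0.13. Hoxa5, a homeobox gene, had 51.3, 40.5 and 57.1 in HD and 121, 162, 102 and 149 in RA/Fsk (1.33 ± 0.22, adjusted p = 8.23e-04). Nr2f1, the orphan receptor COUP-TF1, had 455, 271 and 275 and 619, 853, 595 and 825 (1.13 ± 0.21). Plat, tissue plasminogen activator, had 64.3, 56.2 and 53.7 and 165, 352, 188 and 305 (1.96 ± 0.24). In these 3 genes the groups did not overlap. Crabp2, which carries retinoic acid to the nucleus, was dim in HD at 29.4, 28.1 and 10.1 and reached 75.4, 57.9, 48.6 and 52.4 (1.28 ± 0.38). Cyp26b1, an enzyme that degrades retinoic acid, fell from 59.1, 114 and 58.4 to 40.6, 28.6, 42.4 and 9.5 (-1.29 ± 0.36), a call that 5 alternatives did not give. Rarb, a receptor gene that retinoic acid commonly induces, was 10.2, 21.3 and 9.8 and 19.4, 11.3, 11.4 and 18.5 (0.13 ± 0.45, adjusted p = 0.905), dim and overlapping. Crabp1 was likewise dim (-0.33 ± 0.41).

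Genes of the cyclic AMP machinery changed in both directions, 3 up (9.09%, background 5.72%) and 4 down (12.1%, background 4.94%) of 33. Pde4b, a phosphodiesterase that cyclic AMP itself can induce, rose from 299.6, 297 and 488 to 644, 605, 589.6 and 729.9 (0.86 ± 0.20). Akap12, which anchors protein kinase A, rose from 16.1, 30.4 and 15.7 to 48.7, 67.7, 74 and 71.4 (1.49 ± 0.27). Rapgef3, an exchange factor that cyclic AMP activates directly, rose by 0.52. Pde2a, a phosphodiesterase that cyclic GMP stimulates, fell from 190.1, 99.8 and 128 to 21.6, 29.6, 43.7 and 49.5 (-1.82 ± 0.34). The regulatory subunit Prkar2b (-1.10 ± 0.30), the kinase inhibitor Pkia (-0.99 ± 0.24) and Creb1 itself (a difference of -0.91) fell too. The rises numbered 1 without HD culture 1 or 2, and the falls 1 without HD culture 1 and 2 without HD culture 4 or without RA/Fsk culture 3. Prkar1a (0.06 ± 0.13) and Pde4d (0.20 ± 0.29) did not pass.

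Of 37 measured genes known as CREB targets 6 rose (16.2% against a background of 5.72%), 0 fell and 31 did not pass. Their median was 0.27 against 0.08 for all genes, and 10 (27%) had groups that did not overlap against 18.8% of all genes. Against LD the list had 4 rises and 3 falls, where 8.93% of all genes passed. Fos, an immediate early factor, had 293, 195 and 191 in HD and 1507, 735, 589 and 702 in RA/Fsk (1.87 ± 0.31). Egr1, another such factor, had 176, 59.3 and 96.1 and 1259, 568, 254 and 912 (2.61 ± 0.47). Both were highest in RA/Fsk culture 1 and lowest, among treated cultures, in culture 3. Crem, a factor that represses cyclic AMP responses in a short form, went from 55.2, 122 and 97.7 to 272, 215, 149.9 and 212 (1.20 ± 0.26), and Junb went from 31.6, 18.4 and 43.4 to 71.3, 53.9, 112 and 76.8 (1.23 ± 0.32). The array does not separate Crem forms by their symbol. Scg2 and Vgf complete the 6. Nr4a1, which cyclic AMP induces in many cells, was bright in both groups, at 712, 835 and 941 and 713, 885, 698 and 828 (-0.08 ± 0.30, adjusted p = 0.908). Of 29 immediate early genes 6 rose (20.7%, background 5.72%) and 1 fell (3.45%, background 4.94%). Among them were Sgk1, a kinase (1.41 ± 0.17), as a rise and Myc as the fall (289.8, 554 and 462 to 200.3, 179, 129.8 and 140, -1.37 ± 0.25).

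The promoters of the CREB list were searched for the full cyclic AMP response element TGACGTCA, a palindrome, and for its first 5 letters TGACG on either strand, which each full element contains. The search covered the 250 bases before the annotated start of the gene. Promoter sequences are from RefSeq's GRCr8 assembly of the rat, and 3871 of the 4736 genes matched an entry. Where a gene had several entries, only the first by position was searched here and below. This left 6012 of 33469 entries unsearched. The full element was found in 6 of 29 promoters of the list (20.7%), in 1.68% of 27457 rat promoters of the same length and in 2.32% of the 3871. Members may be known as CREB targets because of this element, so its share in the list is no separate observation. Among genes that rose it was found in 3.14% of 223, and among genes that fell in 1.96% of 204. TGACG was found in 55.2% of the CREB list, 25.1% of the tested genes, 31.8% of those that rose and 29.4% of those that fell. The 6 promoters with the full element are shown as 80 bases around it, on the gene's strand, with the element in capitals, because they hold both genes that rose and genes that did not pass. The first 2 genes rose and the other 4 did not pass.
Scg2, chr9:88256940-88257019, minus strand: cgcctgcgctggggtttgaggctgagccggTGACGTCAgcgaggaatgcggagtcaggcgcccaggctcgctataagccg
Vgf, chr12:25277061-25277140, minus strand: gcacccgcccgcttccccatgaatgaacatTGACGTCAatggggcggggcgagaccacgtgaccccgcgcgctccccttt
Dusp1, chr10:17184699-17184778, plus strand: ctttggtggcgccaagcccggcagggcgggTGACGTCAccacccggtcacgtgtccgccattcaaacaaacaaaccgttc
Th, chr1:207508238-207508317, minus strand: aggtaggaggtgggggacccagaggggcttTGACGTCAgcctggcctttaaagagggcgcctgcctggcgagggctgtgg
Areg, chr14:17265683-17265762, minus strand: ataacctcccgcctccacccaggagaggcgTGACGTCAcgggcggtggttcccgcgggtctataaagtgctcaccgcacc
Cartpt, chr2:32991328-32991407, minus strand: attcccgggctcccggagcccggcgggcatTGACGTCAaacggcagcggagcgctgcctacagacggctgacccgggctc

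The element begins 123 bases before the start in Scg2, 90 in Vgf, 124 in Dusp1, 69 in Th, 91 in Areg and 142 in Cartpt. Scg2 and Vgf rose by 2.56 ± 0.38 and 0.94 ± 0.18. With the same 8 letters, Dusp1, a phosphatase of MAP kinases, had 27.7, 29.7 and 29.6 and 24.7, 14.7, 17.9 and 20.6 (-0.49 ± 0.37, adjusted p = 0.505). The other differences were 0.27 ± 0.23 for Th, -0.06 for Areg, a growth factor, and 0.50 for the neuropeptide gene Cartpt. The presence of the letters thus went with both outcomes in this list. Tesc has no match in its window, and 0 of 18 retinoid promoters hold the full element. A match describes letters and not a bound site.

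Many genes of DNA replication and mitosis fell. Of 43 measured cell cycle genes 24 fell (55.8%, background 4.94%) and 2 rose, with a median of -0.84, and 36 had a lower mean in RA/Fsk. Replication genes that fell included Pola1, the catalytic subunit of DNA polymerase alpha, at 62.8, 42 and 42.9 in HD and 5.8, 8.3, 2.9 and 18.7 in RA/Fsk (-2.06 ± 0.35). Mcm6, of the replicative helicase, stood at 1829.8, 1694 and 1666 and 695, 1142, 681 and 1255 (-0.93 ± 0.19). Pcna, the sliding clamp, stood at 4788, 3732 and 4417 and 2792, 3199, 1577 and 3416 (-0.70 ± 0.21, adjusted p = 0.0404). Prim1 (a difference of -1.12), Prim2 (-0.94), Rpa2 (-0.92) and Mcm7 (-0.84) fell as well. Pcna stayed bright, and Pola1, the dimmest of the 3 with values given, had the largest difference.

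Mitosis genes fell by similar amounts. Hmmr, a spindle protein, had 365, 309 and 435 in HD and 94.3, 143, 68.6 and 168 in RA/Fsk (-1.67 ± 0.25). Cdc20, an activator of the anaphase-promoting complex, had 634, 589.8 and 574 and 238, 371, 149 and 366 (-1.17 ± 0.24). Top2a, the topoisomerase that untangles chromosomes, had 2416, 2173 and 2564 and 820, 1790, 637 and 1832 (-1.05 ± 0.30). Culture 3 was the lowest treated culture in each of these, and it was so in 37 of the 43 genes. Ccnb1 (-1.20), Cdk1 (-1.10), Aurkb (-1.12) and Plk1 (-0.74) also fell. The list's median against the HD mean was -0.77, -0.44, -1.34 and -0.38 in RA/Fsk cultures 1 to 4.

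The 2 genes of the list that rose were cyclins of the D type. Ccnd2, cyclin D2, which partners Cdk4 and Cdk6 in early G1 phase, had 477, 166 and 457 in HD and 3249, 4347, 5641 and 3876 in RA/Fsk (3.64 ± 0.32, adjusted p = 2.18e-06). Ccnd3, cyclin D3, had 340, 469 and 367 and 1312, 1319.5, 779.8 and 1443 (1.59 ± 0.19). Both rose in every alternative fit apart from the unmoderated test. Ccnd1 was 2862, 1702 and 2384 and 2479, 3105, 3159 and 3427 and did not pass (0.41 ± 0.19, adjusted p = 0.215), and Cdk4 fell by 0.49 log2 (SE 0.15). Ccne1 did not pass (0.25 ± 0.21). Of 12 genes of cell cycle exit 2 rose (16.7%, background 5.72%) and 0 fell. The rises were of Cdkn2b, an inhibitor of Cdk4 and Cdk6 (30.8, 33.4 and 43.3 to 88.4, 64.9, 184 and 75.1, 1.30 ± 0.32), and Gadd45a, a stress-induced growth arrest gene (84.7, 79.3 and 70 to 138, 118, 413 and 135, 1.11 ± 0.31). Cdkn1a (0.44 ± 0.19), Cdkn1b (0.41 ± 0.28) and Cdkn1c (0.31 ± 0.29) did not pass. Neither rise was called without HD culture 1, without HD culture 2, in the 7 cultures alone or with the Gapdh ratio as a covariate, and 1 was called without HD culture 4.

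The count of 24 falls depended on the fit and on single cultures, while its direction did not. It was 10 without HD culture 1, 13 without HD culture 4, 9 with the Gapdh ratio as a covariate and 10 when the 7 cultures alone were fitted. The median stayed between -0.95 and -0.61.

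The letters TTTGGCGC or TTTCCCGC, forms of the E2F site found in replication genes, were searched on both strands after the values had been seen. They occurred in 7 of 37 cell cycle promoters (18.9%), in 1.23% of all 27457, in 1.76% of the genes tested, in 0.897% of those that rose and in 3.92% of those that fell. The letters are known from genes of this kind, so their share in the list is no separate observation. The share among genes that fell includes members of this list. Windows of 80 bases on the gene's strand are shown for 4 of the 7, with the match in capitals (in Pola1 and Mcm7 it lies on the opposite strand). They were picked with their values known and show how close such a match lies to the start in genes of this list.
Pola1, chrX:62342478-62342557, minus strand: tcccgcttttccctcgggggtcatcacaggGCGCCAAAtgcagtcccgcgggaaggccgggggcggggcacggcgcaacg
Mcm6, chr13:42404442-42404521, minus strand: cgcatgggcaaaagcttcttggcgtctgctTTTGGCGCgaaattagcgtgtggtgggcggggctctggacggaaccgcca
Mcm7, chr12:22163349-22163428, minus strand: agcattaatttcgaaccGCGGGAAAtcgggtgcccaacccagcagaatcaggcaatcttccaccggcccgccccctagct
Tyms, chr9:120776084-120776163, minus strand: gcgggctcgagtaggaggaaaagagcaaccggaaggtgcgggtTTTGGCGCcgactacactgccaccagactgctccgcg

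The matches begin 172 bases before the start in Pola1, 139 in Mcm6, 233 in Mcm7 and 37 in Tyms. The first 3 genes fell. Tyms, thymidylate synthase, had a difference of -1.07 and did not pass. The 3 genes not shown are Stmn1, which fell (-0.83), and Mcm5 (-0.35) and Cdc25a (0.11), which did not pass, so 4 of the 7 fell.

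Cholesterol synthesis was the other pathway with many falls. Of 16 measured genes 9 fell (56.2%, background 4.94%) and 0 rose, with a median of -1.06, and 15 had a lower mean in RA/Fsk. Fdps, which makes farnesyl diphosphate, had 4562, 5764 and 4560.2 in HD and 1079, 1064, 3338 and 1266 in RA/Fsk (-1.73 ± 0.28, adjusted p = 9.27e-04). Idi1, which acts a step earlier, had 2138, 2074 and 1505 and 465, 782, 1061 and 821 (-1.32 ± 0.24). Msmo1, a sterol methyl oxidase, had 3168, 3514 and 3227 and 635, 984, 2741 and 1047 (-1.51 ± 0.32). Cultures 1, 2 and 4 were far below HD in these genes, and culture 3 was the highest treated culture in each. Dhcr7, which catalyses the last step to cholesterol, had 1202, 1273 and 1101 and 412, 494, 567 and 458 (-1.30 ± 0.16), with culture 3 only a little above the rest. Mvd (-1.60 ± 0.42), Mvk (-1.11 ± 0.28), Lss (-1.09 ± 0.32), Fdft1 (-1.03 ± 0.24) and Acat2 (-0.87 ± 0.26) fell too, and in each of these 5 culture 3 reached the HD range.

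RA/Fsk culture 3 was the highest treated culture in 15 of the 16 genes. The list's median against the HD mean was -1.5, -1.26, 0.04 and -1.16 in RA/Fsk cultures 1 to 4. In 12 of the 16 genes cultures 1, 2 and 4 all lay below the lowest HD culture. Without culture 3, 12 genes fell and the median was -1.34. Without HD culture 2 the count was 4, and without RA/Fsk cultures 1, 2 or 4 it was 6 each time. Insig1, which retains the sterol sensor in the endoplasmic reticulum, was 1079, 1142 and 1097 in HD and 293, 414, 1378 and 431 in RA/Fsk and did not pass (-1.09 ± 0.38). Sqle (-0.87 ± 0.28) and Srebf1 (0.37 ± 0.27) did not pass either. Of 19 fatty acid synthesis genes 1 rose (Elovl5, an elongase, 1.12 ± 0.18) and 1 fell (Acsl5, -0.57 ± 0.17). These are 5.26% each, near the 5.72% and 4.94% of all genes. The call for Acsl5 was lost when any culture other than RA/Fsk 3 was left out, and 3 genes fell without that culture. Without RA/Fsk culture 1, 3 rose. Fasn was 844, 1743 and 1143 and 822, 969.7, 898 and 1177 (-0.31 ± 0.24). The letters TCACNCCAC, a form of the sterol response element chosen after the values were seen, were in 0 of 14 promoters of the list and in 1.0% of all promoters.

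**Figure D3:**
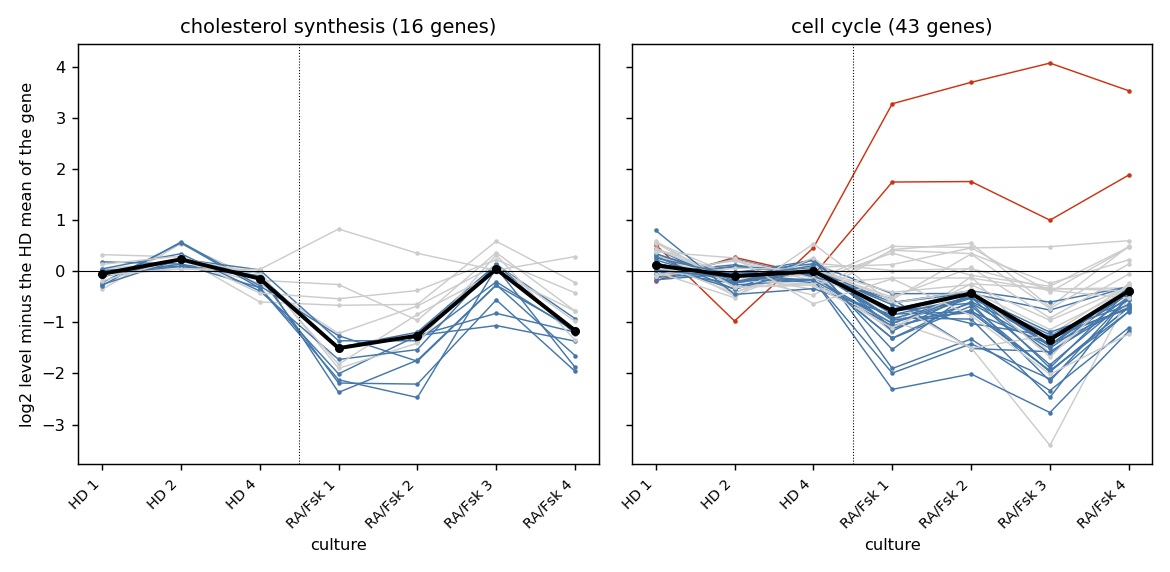
Level of each gene minus its HD mean, in log2, in the 7 cultures, for 16 cholesterol synthesis genes and 43 cell cycle genes; blue lines fell, red lines rose, grey lines did not pass and the black line is the median of the list. RA/Fsk culture 3 stands at 0.04 for cholesterol synthesis and at -1.34 for the cell cycle, the highest and the lowest of the 4 treated cultures.

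Regulators of neurogenesis fell where they changed. Of 29 measured genes 4 fell (13.8%, background 4.94%) and 0 rose (median -0.24). Tcf12, a partner of neurogenic basic helix-loop-helix factors, had 672, 509 and 588 in HD and 127, 88.5, 122 and 140.2 in RA/Fsk (-2.27 ± 0.18, adjusted p = 5.36e-07). Id3 and Id1, which block such factors and respond to BMP, had 556, 1031 and 1041 and 411, 129, 174 and 167 (Id3, -2.06 ± 0.38) and 264, 429.5 and 577 and 188, 76.9, 122 and 68.1 (Id1, -1.89 ± 0.33). Lhx2, a homeobox gene of forebrain progenitors, fell by 0.85 log2 (SE 0.25), a call lost in 8 alternatives. For Id3, RA/Fsk culture 1 stood above the other treated cultures and below each HD culture.

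BMP, Notch and Wnt genes showed 2 rises (5.13%, background 5.72%) and 6 falls (15.4%, background 4.94%) among 39. Next to Id1 and Id3, the ligand Bmp7 fell from 292, 256 and 356 to 144, 108, 155 and 109 (-1.20 ± 0.27). The BMP signal carrier Smad1 (-0.87 ± 0.24), the Wnt receptor Fzd1 (-1.21 ± 0.21) and the Wnt inhibitor Sfrp4 (-1.75 ± 0.42) fell as well. Pmepa1 and Lgr5, a receptor of R-spondins (1.25 ± 0.37), rose. When any culture other than RA/Fsk 3 was left out, 1 of the 2 rises was left. Notch targets were uneven: Hes5 was 71.6, 23.3 and 122 and 34, 20.1, 13.9 and 21.7 (-1.30 ± 0.43, adjusted p = 0.0696), and Hes1 was 152, 27 and 157 and 229, 204, 147 and 186 (1.06 ± 0.40, adjusted p = 0.117). HD culture 2 was the lowest HD culture in both.

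Growth factor genes showed 6 rises (8%) and 3 falls (4%) among 75, near the shares of all genes (5.72% and 4.94%). Tgfa, a ligand of the EGF receptor, went from 141, 212 and 146 to 609.8, 499, 299.5 and 553 (1.51 ± 0.24). Gfra1 went from 116, 106 and 100 to 365, 419, 242 and 383 (1.65 ± 0.22). Il6r (1.50 ± 0.33) and Il6st (1.23 ± 0.27), both chains of the interleukin-6 receptor, rose together. Ntrk2, the receptor of BDNF (a rise of 1.14), and Hbegf (0.87) rose too, and Tgfbr1 (-1.28 ± 0.40), Igfbp3 (-0.87 ± 0.21) and Pdgfa (-0.56) fell. The 3 falls became 0 without HD culture 1 or in the 7 cultures alone, and 1 without HD culture 2 or 4 or RA/Fsk culture 2.

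Matrix and actin genes changed in both directions. Of 71 matrix and adhesion genes 8 rose (11.3%, background 5.72%) and 5 fell (7.04%, background 4.94%). The falls numbered 3 without HD culture 1. Beside Thbs4 and Agrn, the proteoglycans Sdc1 (-1.40 ± 0.29) and Vcan (-1.11 ± 0.25) fell, while Timp1, an inhibitor of matrix proteases, rose by a small and even amount (434, 380.3 and 415 to 705, 666, 684 and 600.2, 0.69 ± 0.11). Of 41 actin genes 6 rose (14.6%) and 4 fell (9.76%). The falls numbered 1 without HD culture 2 or in the 7 cultures alone, and 2 without HD culture 1 or RA/Fsk culture 1. Arpc1b, of the complex that branches actin, went from 929.5, 1962 and 1193 to 4943, 3439.8, 5503 and 3899.9 (1.75 ± 0.21), and Rhoc, a small GTPase, from 711, 605 and 517 to 1319, 1909, 1598 and 1631 (1.39 ± 0.14). Csrp2, a LIM protein, fell from 475, 408 and 461 to 164, 164, 93.7 and 209 (-1.53 ± 0.23).

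Protective enzymes rose where they changed, in 5 of 35 antioxidant and glutathione genes (14.3%, background 5.72%), with 0 falls. Sod3, the extracellular superoxide dismutase, had 188, 527 and 378 in HD and 1610.3, 3206, 1387 and 2068 in RA/Fsk (2.53 ± 0.36). Gsta4 had 27.1, 21.1 and 21 and 126, 160.4, 54.4 and 98.7 (1.94 ± 0.37), and Gstm7 had 31.2, 38.1 and 28.9 and 203, 130, 133 and 133 (2.02 ± 0.38); both belong to the glutathione transferases, whose close copies may share signal. Without HD culture 1 the rises numbered 3. Stress genes went both ways, with 5 up (13.5%, background 5.72%) and 5 down (13.5%, background 4.94%) of 37. The rises numbered 3 without HD culture 2 or RA/Fsk culture 2, and the falls 3 without HD culture 2 or 4. Ppp1r15a, which restarts translation after stress, rose from 105, 109 and 110.1 to 435, 378, 924 and 350.1 (2.10 ± 0.26), highest in culture 3. Calr (1.01 ± 0.19) and Cryab (1.04 ± 0.17), both chaperones, rose, while Hsp90b1 (a difference of -1.06) and Asns (-1.13) fell.

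Few genes of oxidative phosphorylation and the proteasome passed, against 10.7% of all genes (5.72% rose and 4.94% fell). Of 55 oxidative phosphorylation genes 0 passed in limma (median -0.02). An unadjusted p under 0.05 was found for 8 of them (14.5% against 23.3% of all genes), and 5 (9.09% against 18.8%) had groups that did not overlap. Of 27 proteasome genes 1 fell (3.7%), a call lost without HD culture 1 or 2 or RA/Fsk culture 1 or 3. Of 26 glycolysis genes 2 rose (7.69%) and 2 fell (7.69%). Without HD culture 4 or RA/Fsk culture 1, 1 glycolysis gene rose and 0 fell, while 5 fell without RA/Fsk culture 3. Of 44 ribosomal protein genes 4 (9.09%) fell by 0.38 to 0.58 log2 and 1 (2.27%) rose (median -0.15). The falls numbered 1 without HD culture 2 or RA/Fsk culture 2 or 4, 2 without HD culture 1 or 4, and 0 in the 7 cultures alone. The rise was that of a probe set named Rpl19l4 (2.15 ± 0.32), and which transcript this probe set measures is uncertain, since ribosomal genes have many near copies. Of 26 interferon and antigen presentation genes 1 rose, Ccl2.

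**Figure D4:**
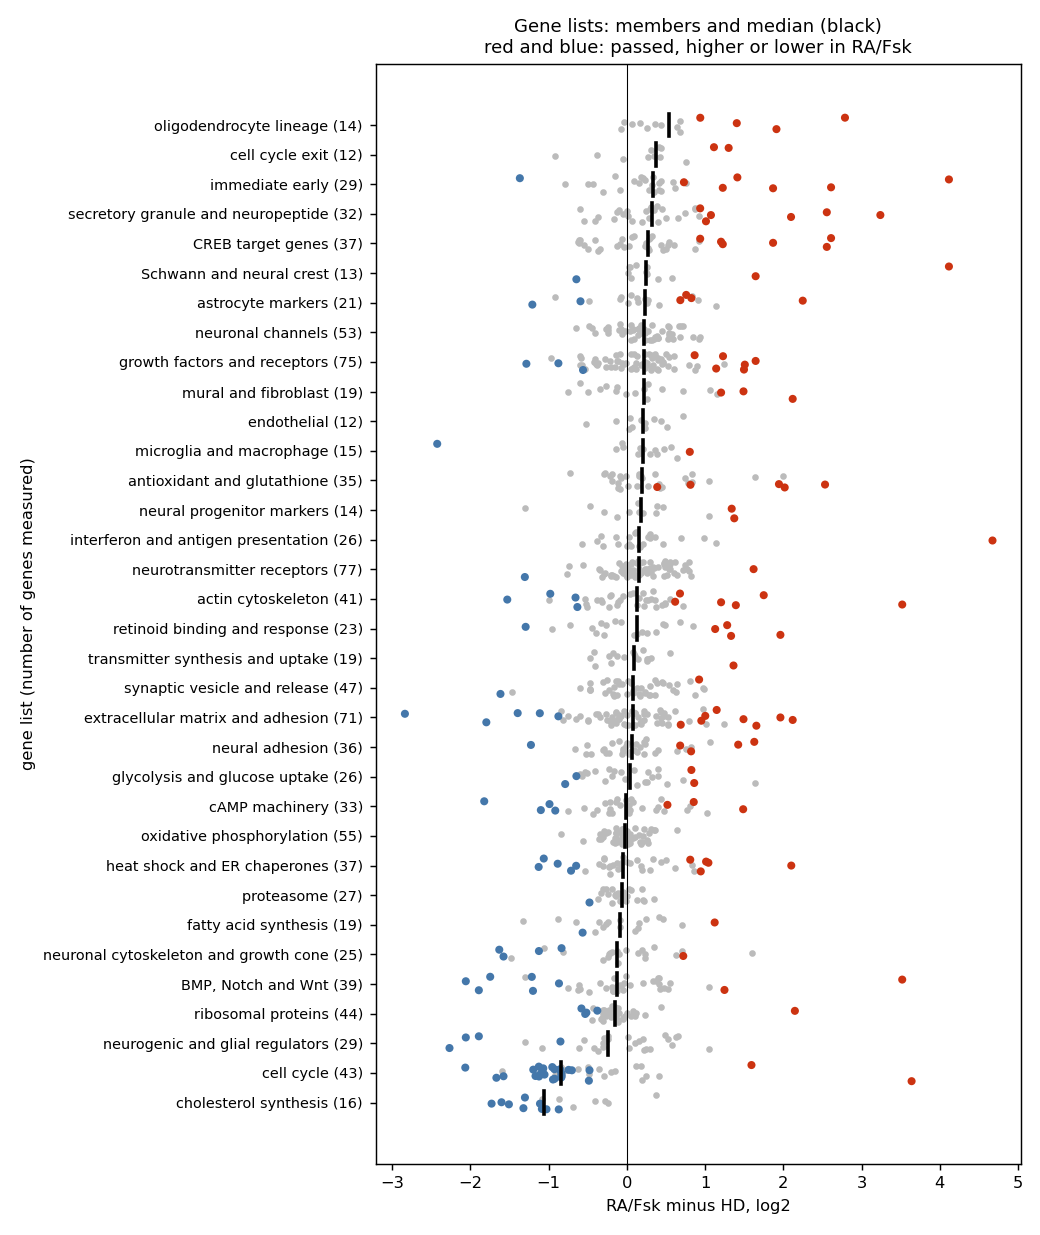
Difference between RA/Fsk and HD in log2 for each measured gene of 34 lists, with the number of genes in brackets; red and blue points rose and fell, grey points did not pass, and black bars are medians. The medians of the cholesterol synthesis list (-1.06) and the cell cycle list (-0.84) lie farthest below 0, and that of the oligodendrocyte list (0.54) farthest above.

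The choice of progenitor reference was tested by HD minus LD in the same fit. It gave 75 probe sets of 8740 (0.858%) and 22 of 4736 genes (0.465%). RA/Fsk minus LD gave 721 probe sets (8.25%) and 423 genes (8.93%), and RA/Fsk minus FBS gave 915 genes (19.3%). Both comparisons with RA/Fsk share the RA/Fsk cultures, so their values are given side by side and their likeness is no support for either. Of the 14 largest rises against HD, 13 also passed as rises against LD, and 0 passed in HD minus LD. Egr1 was the exception, at 1.50 against LD (adjusted p = 0.0607), and its LD values were 185, 236 and 254. Tesc stood at 25.4, 11 and 5.0 in LD, and its rise was 6.65 against LD. Of the 14 largest falls against HD, 9 passed as falls against LD and 2 passed in HD minus LD.

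Those 2 were Tcf12 and Id3, in which the HD cells stood above the LD cells. Tcf12 had 246, 257 and 346 in LD, was 1.05 higher in HD than in LD (adjusted p = 0.0114) and fell by 1.21 log2 (SE 0.18) from LD to RA/Fsk, less than from HD. Id3 had 429, 247 and 124 in LD and was 1.81 higher in HD (adjusted p = 0.0498), and RA/Fsk minus LD was -0.25 (adjusted p = 0.798). The fall of Id3 was thus seen against HD and did not pass against LD. Aldoc was 0.94 higher in HD than in LD (adjusted p = 0.0126), and its rise was 0.83 ± 0.16 against HD and 1.77 against LD. Rpl19l4 stood at 2847, 2903 and 2433 in LD, far above HD, so RA/Fsk was higher than HD (2.15 ± 0.32) and lower than LD (-1.43). For these 4 genes the size or the direction of the difference depended on the progenitor state chosen.

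The 4 other large falls that did not pass against LD were Ctnnd2 (-1.06 against LD), Lin7c (-1.30), Id1 (-0.88) and Dctn4 (-0.42). None of these 4 passed in HD minus LD, where their differences were 1.28, 0.82, 1.01 and 1.30. Over all genes 10.7% passed against HD, 8.93% against LD and 0.465% in HD minus LD. The cell cycle list had 24 falls against HD and 18 against LD, and the cholesterol list had 9 and 5. In HD minus LD both lists had 0 calls, with medians of 0.03 and 0.15. The CREB list had 6 rises and 0 falls against HD, and 4 rises and 3 falls against LD. Its median was 0.27 against HD, -0.0036 against LD, and -0.29 in HD minus LD, where 1 member fell.

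**Figure D5:**
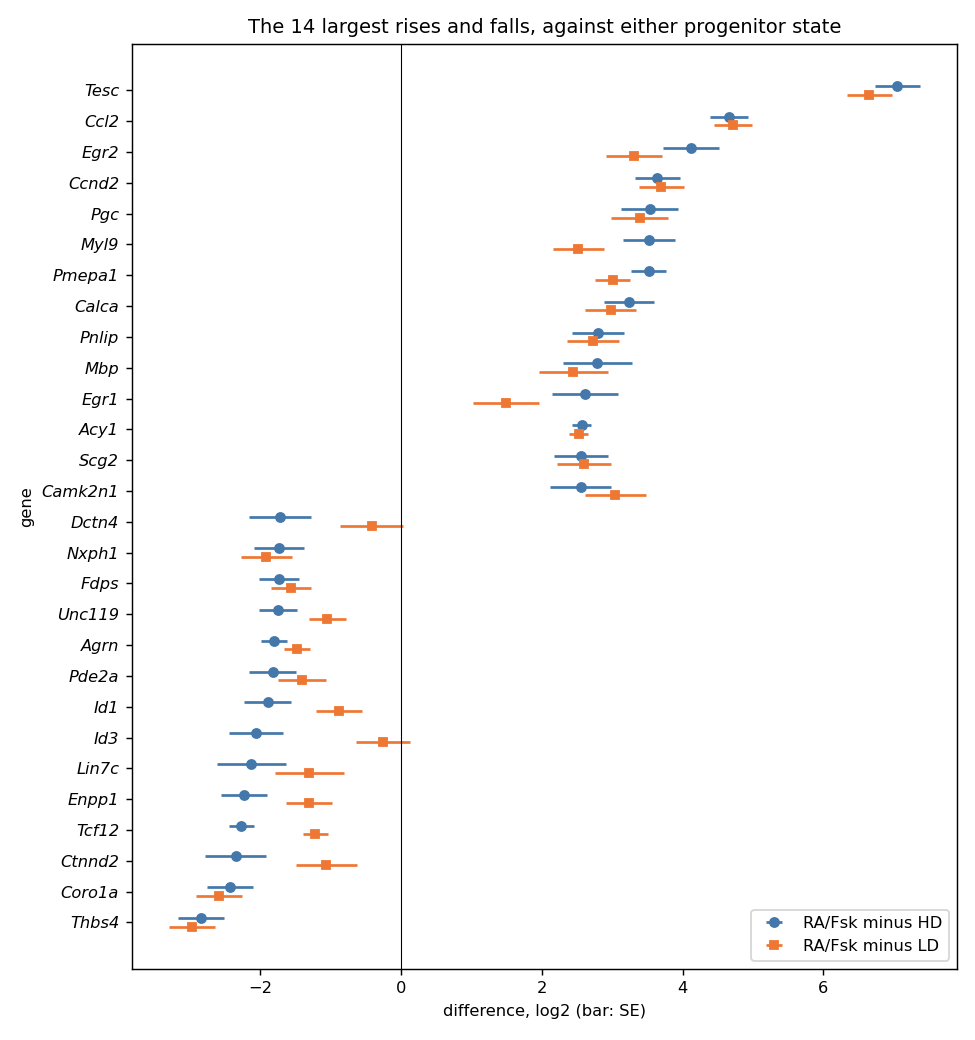
Difference of RA/Fsk from HD (blue circles) and from LD (orange squares) in log2, with SE, for the 14 largest rises and 14 largest falls against HD. The 2 values lie close for Ccl2, Ccnd2 and Acy1, and the LD value is near 0 for Id3 and Dctn4.

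Set beside the FBS derivatives, 8 of the 14 largest rises were also higher in RA/Fsk than in FBS, among them Tesc (3.91), Ccl2 (3.54), Pnlip (3.16) and Acy1 (2.44). Myl9 was lower in RA/Fsk than in FBS (-1.72, adjusted p = 0.00158). S100b did not pass between both treatments (0.31, adjusted p = 0.237), and neither did Ccnd2 (0.70), Egr2 (0.52) or Pmepa1 (-0.26). Id3 was lower than in FBS by 3.40 log2 and Id1 by 3.06 log2. Cell cycle and cholesterol genes were higher in RA/Fsk than in FBS where they passed, in 21 of 43 and 7 of 16 genes, with 0 lower in either list. Over all genes 19.3% passed in that comparison, and of 8740 probe sets 723 were higher and 883 lower in RA/Fsk.

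Some strong signals carry no single symbol. Of the 20 largest rises among probe sets 7 are unnamed here, the largest at 5.74, while 0 of the 20 largest falls are. Of 1734 probe sets with several or no symbols, 74 rose and 54 fell.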

How the data were processed

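Intensities on a linear scale were deposited by the authors for 8799 Affymetrix probe sets and 20 arrays. All arrays share nearly the same trimmed mean. How the authors corrected background, summarised probes and scaled arrays is not given in the sources used here. Precision is limited by how few arrays there are. The values include 6 zeros, no negative numbers and no detection calls.

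Before log2 was taken, 4.96 (10% of 49.6, the median of the positive values) was added. Arrays with one number in a group were averaged. Without 59 controls, 8740 probe sets were tested. Of these, 7006 carry a single gene symbol, 308 several and 1426 none (among them 191 whose identifiers the annotation table does not list). Of the gene identifiers, 6985 matched the RefSeq gene table of GRCr8. Each gene is represented by its probe set with the highest mean. Identifiers of probe sets contain accessions and are left out.

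All 14 cultures of the 4 groups were fitted with limma 3.58.1 in R 4.3.3 (lmFit, eBayes with an intensity trend, 10 residual and 6.13 prior degrees of freedom) and adjusted by Benjamini-Hochberg over the 8740. The fit was tested on simulated data. Lists are described by counts and medians. Of the genes listed, kinases with ribosomal names were dropped from the ribosomal list and Tesc from the CREB list. The members and lists were chosen with earlier results of these data known. Named genes are the 14 largest rises and falls with non-overlapping cultures and a brighter group mean at or above the median, the 5 members (or fewer) per list that passed with the lowest adjusted p, and set markers. Other list members were picked with their values in view. The 21 alternatives change the pseudocount, scaling, filter, samples, averaging, trend, covariate, replicate block and test.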

Additional observations from a re-analysis of the deposited data

Results flagged for a closer look

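In the 4 RA/Fsk cultures, 15 of 182 named genes had 1 culture far from the other 3, by Dixon's criterion on log2 values, where chance gives about 5%, or 9.1 genes. Of the 15, 9 were in RA/Fsk culture 3. There, Fdps (3338) and Fdft1 (783), both of cholesterol synthesis, were high, as were Acsl5 (197), which activates fatty acids, Gadd45a (413) and Rpl14 (1869). In the same culture Pnlip (1181), Enpp2 (169), Ccnd3 (780) and Ccne1 (171) were low. Culture 4 stood apart as the highest for Cntn1 (1479), Aldoc (4943) and Glul (1919). In culture 2 Pam (331) was high and Prkar1a (1404) low, and in culture 1 Gstm7 (203) was high. All values are intensities.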

How the results depend on the processing

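The 889 calls became 502 (267 higher, 235 lower) when the 7 RA/Fsk and HD cultures were fitted alone, and 10 (8 higher, 2 lower) in an unmoderated test per probe set on the same cultures. Adding the control ratio of Gapdh as a covariate left 278 lower. Leaving out 1 culture at a time gave 559 to 886 calls, 265 to 429 of them lower, and the lowest total was without HD culture 4. Besides the unmoderated test, the split moved most under median centring (294 higher, 483 lower) and the covariate (441 higher, 278 lower). Numbers in the labels are shared by the groups, but deviations of same-numbered cultures correlated at 0.13, -0.0121 and 0.0147, and HD 4 correlated best with RA/Fsk 3 (0.153), so the numbers were not taken as pairs. A replicate block gave 929 calls (474 higher, 455 lower), and with it 12 cholesterol genes fell instead of 9.

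List medians that moved by more than 1 SD between cultures were few. Leaving out the dimmer 50% of probe sets gave 0.96 for mural and fibroblast genes (6 of 19 left) and 0.42 for retinoid genes (10 of 23 left). Keeping probe sets with a bright group gave 1.20 and 0.47 for these, 0.81 for granule genes and -0.24 for endothelial genes. This left 5 of 19, 12 of 23, 16 of 32 and 2 of 12 members. A gene can enter this filter through its higher group alone, so these medians are no separate observation on the lists. The covariate gave 0.56 for microglia, 0.28 for matrix and 0.41 for interferon genes. The microglia median turned to -0.040 with the a arrays of HD alone. Over left-out cultures it ran from 0.0080 to 0.38, the neurogenic median from -0.29 to -0.0066 and the antioxidant median from 0.098 to 0.27. Without depth or detection calls, dim genes are limited by background, and differences near the median SE of 0.28 log2 were mostly not callable. Where no cause is named, the cause was not tested.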

Other observations

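Cyclic AMP response element letters were also found in cholesterol synthesis promoters: TGACG in 8 of 14 (57.1%), against 25.1% of the genes tested, and TGACGTCA in 0 of 14. Among the 10 matched promoters of the 14 largest rises, TGACGTCA was found in 1, that of Scg2, and TGACG in 5.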
